A study of Mus musculus with 22 samples.

Results

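Chemokine receptors and related receptors that macrophages can carry are encoded by 8 of the genes read by the arrays, namely Cxcr4, Cx3cr1, Ccr2, Ccr7, Ccrl2, Ccr3, Ccr1 and Cmklr1. They were taken by gene symbol, through every probe whose RefSeq accession maps to one of the 8 symbols, which gave 10 of the 55681 probes of the array. All of them were read in bone marrow-derived macrophages (BMDM), cells grown for 9 days from the femoral marrow of mice with 10 ng/ml of the growth factor M-CSF. Of the 8 receptors, 6 passed the filter on dim probes and were tested among 22384 genes, while Ccr1 and Cmklr1 did not pass it.

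The donors were C57BL/6 mice labelled male and aged 10 to 14 weeks, and the cells were wild-type (wt), deficient in the kinase MK2 (MK2-/-) or deficient in both MK2 and its close relative MK3 (MK2/3-/-). These kinases lie downstream of p38 MAPK, and no group lacked MK3 alone. Cells of each genotype received 100 ng/ml lipopolysaccharide (LPS), the outer-membrane glycolipid of Gram-negative bacteria, or medium alone for 360 min. The question was how these transcripts respond to LPS and whether the response or the level differs between genotypes. There were 3 arrays each for wt with LPS and MK2/3-/- in medium and 4 for every other group, 22 in all, with 1 RNA sample per array. The methods describe 4 independent experiments, and neither the methods nor the labels say whether marrow of several mice was pooled.

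Chemokine receptors are G protein-coupled receptors of the cell surface that read gradients of secreted chemokines and steer migrating leukocytes. Some bind few ligands, such as CXCR4 with CXCL12 or CX3CR1 with CX3CL1, and others several. A smaller class of atypical receptors binds ligands without signalling through G proteins, and CCRL2, which holds the attractant chemerin at the cell surface, belongs to it. In maturing dendritic cells and activated macrophages, the known pattern is a loss of receptors for inflammatory and bone marrow chemokines and a gain of CCR7, the receptor for the lymph node chemokines CCL19 and CCL21.

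Depth on an array is the brightness of its probes, given here as log2 of the processed signal after quantile normalisation, so that 1 unit is a 2-fold change. Between 61.7 and 83.0% of the spots of an array were well above background, and no spot was marked as saturated. Of the 8 macrophage markers looked up, 7 had a probe, and all 7, including Adgre1 and Csf1r (the M-CSF receptor), were well above background on all 22 arrays. Markers of stromal cells, 5 genes such as Col1a1, were uneven between arrays. Their summed linear signal ran from 676 on an array of MK2/3-/- in medium to 99628 on an array of wt in medium. The ranges of the genotypes overlapped within each treatment, and the part of such cells was not tested. The signals of the targeted kinases followed the labels, though not down to background. Mapkapk2 was at 11.61 ± 0.29 (SD, n = 4) in LPS-treated MK2-/- BMDM against 14.96 ± 0.57 (n = 3) in wt, and Mapkapk3 was at 7.99 ± 0.41 (n = 4) in LPS-treated MK2/3-/- BMDM against 12.12 ± 0.15 (n = 3) in wt. In medium the gaps were 8.88 ± 0.13 (n = 4) against 11.92 ± 0.77 (n = 4) for Mapkapk2 in MK2-/- and wt, and 11.17 ± 0.22 (n = 3) against 13.12 ± 0.25 (n = 4) for Mapkapk3 in MK2/3-/- and wt. A set of 3 arrays stood apart from their groups. Replicate 4 of wt in medium was set apart for raised LPS-inducible genes, whose values per array are shown here for the receptors only. Replicate 3 of MK2-/- in medium and replicate 3 of MK2-/- with LPS had Y-linked signals near background, against their label of male. The latter array also had 2927 spots marked as outliers, against 115 to 261 on every other array, and the highest share well above background, 83.0%. The arrays of each genotype shared a slide of their own, so that a difference between genotypes cannot be told apart from a difference between slides, whereas LPS and medium arrays of a genotype were on the same slide.

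The sequence upstream of the start site is shown for the 5 tested receptors that have an entry in the RefSeq promoter table of GRCm38.p6, because these genes moved in opposite directions with LPS. Each line holds the 250 bases before the start, 5′ to 3′ on the gene's own strand. Capitals mark matches, on either strand, to the kappaB consensus, to the AP-1 site TGANTCA, to an interferon response-like element GAAANNGAA or to the PU.1 core GAGGAA. Among 32851 RefSeq promoters cut to the same length, 5.00% held a kappaB match, 6.75% an AP-1 match, 7.13% the interferon response-like element and 23.3% the PU.1 core.
Ccrl2 (chr9:111057519-111057768, minus strand): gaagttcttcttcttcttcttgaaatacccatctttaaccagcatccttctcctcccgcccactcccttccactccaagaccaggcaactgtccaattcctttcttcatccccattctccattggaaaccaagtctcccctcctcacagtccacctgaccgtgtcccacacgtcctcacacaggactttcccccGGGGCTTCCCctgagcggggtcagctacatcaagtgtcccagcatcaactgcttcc
Ccr3 (chr9:124021721-124021970, plus strand): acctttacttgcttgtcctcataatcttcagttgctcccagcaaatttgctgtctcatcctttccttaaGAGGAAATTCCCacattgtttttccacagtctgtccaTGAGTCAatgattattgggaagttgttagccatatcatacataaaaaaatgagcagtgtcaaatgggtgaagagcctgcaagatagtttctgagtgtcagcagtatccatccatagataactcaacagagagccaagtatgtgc
Ccr2 (chr9:124101933-124102182, plus strand): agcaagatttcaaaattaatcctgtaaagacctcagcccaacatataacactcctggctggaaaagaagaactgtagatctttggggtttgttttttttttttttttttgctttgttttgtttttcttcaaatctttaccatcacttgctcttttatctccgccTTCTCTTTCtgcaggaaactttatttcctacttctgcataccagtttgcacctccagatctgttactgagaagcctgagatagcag
Cxcr4 (chr1:128592300-128592549, minus strand): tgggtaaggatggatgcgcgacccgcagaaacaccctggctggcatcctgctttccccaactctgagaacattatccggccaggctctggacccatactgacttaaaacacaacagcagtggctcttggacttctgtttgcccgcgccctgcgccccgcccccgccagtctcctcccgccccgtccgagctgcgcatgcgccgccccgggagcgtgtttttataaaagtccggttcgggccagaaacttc
Cx3cr1 (chr9:120068297-120068546, minus strand): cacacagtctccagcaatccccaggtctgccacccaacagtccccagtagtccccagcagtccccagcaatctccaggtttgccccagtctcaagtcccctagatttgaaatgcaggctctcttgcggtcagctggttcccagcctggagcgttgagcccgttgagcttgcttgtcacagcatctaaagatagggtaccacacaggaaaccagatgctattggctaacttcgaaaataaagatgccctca
The Ccrl2 window held a kappaB match beginning 56 bases before the start. The table gives Ccrl2 3 start sites, of which the first is shown, and the windows of the other two held no match to any of the 4 motifs. In Ccr3 a kappaB match began 179 bases and an AP-1 match 144 bases before the start, and a PU.1 core beginning at 181 bases overlapped the kappaB match. Ccr2 held 1 interferon response-like element, 86 bases before its start. The windows of Cxcr4 and Cx3cr1 held none of the 4 motifs, which says only that these letters are not in 250 bases. On chromosome 9 lie 5 of the 8 genes, Ccr1, Ccr3, Ccr2, Cx3cr1 and Ccrl2, and Ccr1, Ccr1l1, Ccr3 and Ccr2 follow each other there as neighbouring protein-coding genes. Cxcr4 lies on chromosome 1, Cmklr1 on chromosome 5 and Ccr7 on chromosome 11.

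After 360 min of LPS, all 6 tested receptors changed in all 3 genotypes. Cxcr4, Cx3cr1 and Ccr2 fell, and Ccr7, Ccrl2 and Ccr3 rose. These 6 calls per genotype, by limma at an adjusted p below 0.05 over all genes, stand beside a background in which 41.8% of all tested genes were called in wt, 44.4% in MK2-/- and 47.8% in MK2/3-/-. Higher calls made up 18.6, 17.7 and 20.3% of all tested genes in these genotypes, and lower calls 23.2, 26.7 and 27.5%. In each genotype, LPS and medium arrays did not overlap for any of the 6 receptors, as for 48.6% of all tested genes in wt, 41.8% in MK2-/- and 49.8% in MK2/3-/- BMDM. Scaling each array to its 75th percentile moved the median log2 difference of all genes from -0.04 to 0.25 in wt, from 0.00 to 0.26 in MK2-/- and from 0.02 to 0.24 in MK2/3-/- BMDM. No receptor changed direction under it, but the rise of Ccr3 in MK2/3-/- BMDM lost its call (0.92, adjusted p = 0.0694 by limma).

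**Figure D1:**
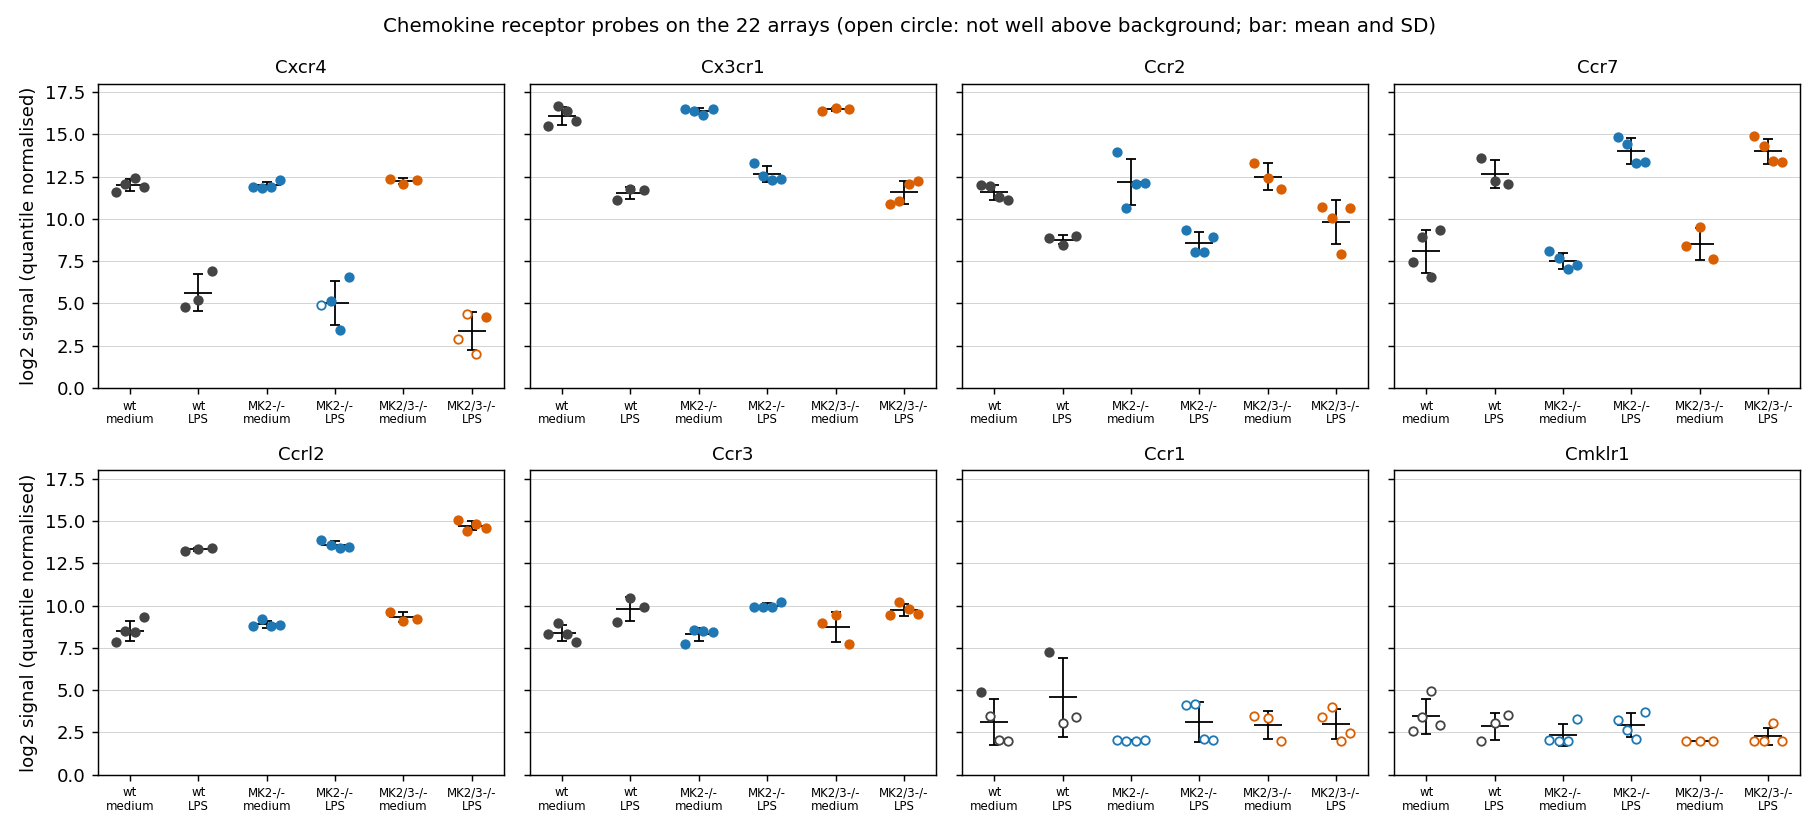
Log2 signal of the 8 receptor probes (vertical axis, quantile normalised) on each of the 22 arrays, by genotype and treatment (horizontal axis). Filled circles are arrays on which the probe was well above background, open circles those on which it was not, and bars give the mean and SD of the group. Cxcr4 lay between 11.61 and 12.43 in medium and at or below 6.89 with LPS, whereas Ccrl2 lay at or below 9.65 in medium and at or above 13.22 with LPS.

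Cxcr4, the receptor for CXCL12 that holds leukocytes in the bone marrow, showed the steepest fall of the 6. In medium its log2 signal (NM_009911) was 11.61, 12.07, 12.43 and 11.87 in wt, 11.90, 11.85, 11.91 and 12.31 in MK2-/- and 12.38, 12.05 and 12.30 in MK2/3-/- BMDM. With LPS it was 4.81, 5.22 and 6.89 in wt, 4.88, 5.15, 3.44 and 6.59 in MK2-/- and 2.87, 4.39, 2.01 and 4.19 in MK2/3-/- BMDM. The medium arrays of the 3 genotypes overlapped, from 11.61 to 12.43, and every LPS array lay far below them. Several of the LPS values are at the floor of the measurement, since Cxcr4 was well above background on 3 of 3 wt, 3 of 4 MK2-/- and only 1 of 4 MK2/3-/- arrays with LPS. The log2 difference between LPS and medium was -6.36 ± 0.62 (SE) in wt, with an adjusted p of 1.45e-07 by limma. It was -6.98 ± 0.57 in MK2-/- (adjusted p = 7.82e-09) and -8.88 ± 0.62 in MK2/3-/- cells (adjusted p = 1.23e-09). With normexp background correction in place of the processed signal, the difference in MK2/3-/- BMDM was -5.90. The genes whose signals followed Cxcr4 most closely over the 22 arrays were Otulinl (Pearson r = 0.988), Bmf (r = 0.987) and Zfp36l2 (r = 0.986). Here and for the other receptors, r was taken over both treatments together, so that a shared LPS change alone can make it high. It was not tested.

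Cx3cr1, the receptor for the membrane-bound chemokine fractalkine and a hallmark of resident macrophages and patrolling monocytes, fell from a bright signal. Its main probe (NM_009987) read 15.49, 16.65, 16.37 and 15.78 in wt, 16.50, 16.40, 16.13 and 16.51 in MK2-/- and 16.38, 16.55 and 16.53 in MK2/3-/- BMDM in medium. With LPS the values were 11.12, 11.79 and 11.69 in wt, 13.33, 12.55, 12.32 and 12.35 in MK2-/- and 10.88, 11.05, 12.09 and 12.23 in MK2/3-/- BMDM. All LPS arrays stayed well above background, with those of MK2-/- as the highest. The log2 difference was -4.54 ± 0.34 (SE) in wt (adjusted p = 5.96e-09), -3.75 ± 0.31 in MK2-/- (adjusted p = 1.09e-08) and -4.92 ± 0.34 in MK2/3-/- cells (adjusted p = 1.14e-09). Both other probes of the gene gave falls of the same order, of -4.65 and -5.22 in wt, -3.72 and -3.97 in MK2-/- and -4.93 and -5.12 in MK2/3-/- BMDM. Arap3 (r = 0.988), Clcn4 (r = 0.981) and Rnf166 (r = 0.980) followed Cx3cr1 most closely over the 22 arrays.

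Ccr2, the receptor for CCL2, CCL7 and CCL12 with which monocytes leave the marrow and enter inflamed tissue, fell as well, with a wider spread between arrays. In medium it read (NM_009915) 11.98, 11.92, 11.28 and 11.13 in wt, 13.94, 10.63, 12.05 and 12.14 in MK2-/- and 13.33, 12.40 and 11.76 in MK2/3-/- BMDM. With LPS it read 8.89, 8.45 and 8.99 in wt, 9.33, 8.05, 8.04 and 8.90 in MK2-/- and 10.70, 10.07, 7.90 and 10.64 in MK2/3-/- BMDM. Replicate 1 of MK2-/- and of MK2/3-/- in medium stood above all other arrays. The log2 difference was -2.80 ± 0.67 (SE) in wt (adjusted p = 0.00231), -3.61 ± 0.62 in MK2-/- (adjusted p = 7.81e-05) and -2.67 ± 0.67 in MK2/3-/- cells (adjusted p = 0.0026). Leaving out replicate 1 of MK2-/- in medium gave -3.03 in that genotype (adjusted p = 0.000338), and leaving out replicate 1 of MK2/3-/- in medium gave -2.26 (adjusted p = 0.0204). The closest followers of Ccr2 were less close than those of the other falling receptors, with Rpl31-ps12 (r = 0.927), Nbdy (r = 0.924) and Nedd4l (r = 0.920) at the top.

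The summed signal of the monocyte markers was highest on replicate 1 of each group, though Spn alone was not the highest there in every group. Ccr2 was highest on replicate 1 in 5 of 6 groups, all but wt with LPS. Of the 3 monocyte genes used, 2 had a probe, Ly6c1 and Spn, and both were well above background on 22 of 22 arrays. Their summed linear signal was 53716 on replicate 1 and 16762 to 20830 on the other arrays of MK2-/- in medium. On MK2/3-/- in medium it was 49562 on replicate 1 and at or below 21269 on the others, and on wt in medium 27717 on replicate 1 and at most 18787 on the others. The LPS groups ranged from 11185 to 24892 in wt, from 10410 to 19487 in MK2-/- and from 13715 to 28185 in MK2/3-/- BMDM, again with replicate 1 as the highest of each. Between treatments, Ly6c1 was not called in any genotype, with log2 differences of 0.07 in wt, -0.98 in MK2-/- and -0.14 in MK2/3-/-, and Spn had differences of -1.12 in wt (adjusted p = 0.0469), -0.91 in MK2-/- (adjusted p = 0.0789) and -1.49 in MK2/3-/- cells (adjusted p = 0.00837). The part of such cells in the level of Ccr2 was not tested, and in bulk RNA fewer cells of a type and less RNA per cell cannot be told apart.

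**Figure D2:**
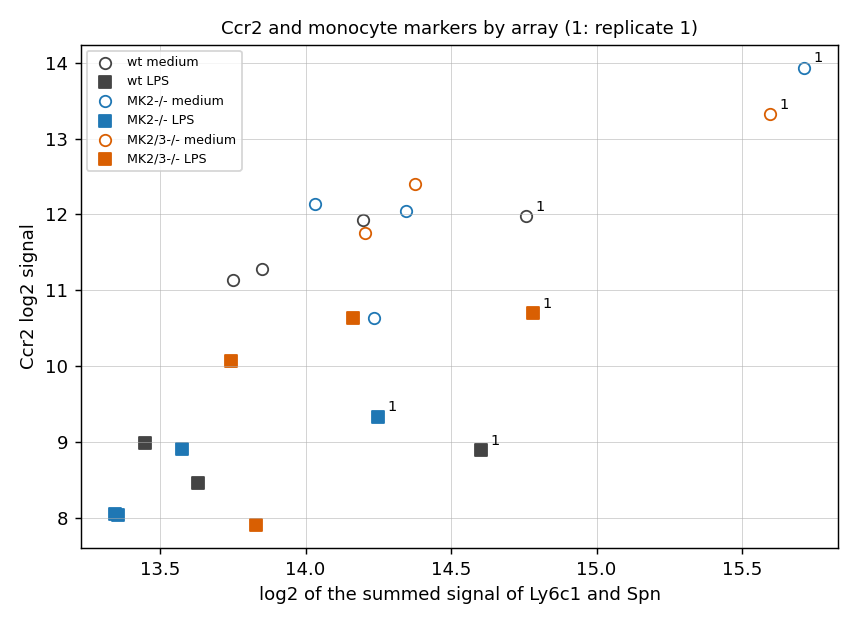
Ccr2 log2 signal (vertical axis) against log2 of the summed linear signal of the monocyte markers Ly6c1 and Spn (horizontal axis) on the 22 arrays. Circles are medium and squares LPS, colours are genotypes, and replicate 1 of each group is labelled 1. The arrays with the highest marker sums, replicate 1 of MK2-/- and of MK2/3-/- in medium, also had the highest Ccr2 values, 13.94 and 13.33.

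Ccr7, which guides activated dendritic cells and other leukocytes toward lymph nodes, rose strongly. In medium its signal (NM_007719) was 7.47, 8.94, 6.57 and 9.31 in wt, 8.07, 7.67, 7.03 and 7.28 in MK2-/- and 8.40, 9.54 and 7.60 in MK2/3-/- BMDM. With LPS it reached 13.59, 12.25 and 12.07 in wt, 14.84, 14.45, 13.28 and 13.39 in MK2-/- and 14.91, 14.32, 13.43 and 13.34 in MK2/3-/- BMDM. The resting level was the least uniform of the 6 in wt, where replicate 4, the array set apart for raised LPS-inducible genes, was the highest. The log2 difference was 4.56 ± 0.63 (SE) in wt (adjusted p = 1.04e-05), 6.48 ± 0.58 in MK2-/- (adjusted p = 2.64e-08) and 5.49 ± 0.63 in MK2/3-/- cells (adjusted p = 6.42e-07). Nfkbie, which encodes an inhibitor of NF-kappaB (r = 0.977), Gm12250 (r = 0.975) and Cers6 (r = 0.974) followed Ccr7 most closely. Of all tested genes, 18.6, 17.7 and 20.3% rose and 23.2, 26.7 and 27.5% fell in wt, MK2-/- and MK2/3-/- BMDM. On the dendritic cell list of 6 genes, 1 gene rose in wt, 1 rose and 1 fell in MK2-/-, and 3 rose in MK2/3-/- BMDM. All 6 had a probe, and their summed linear signal ranged from 58316 to 144096 in medium and from 50446 to 73969 with LPS in wt, from 64685 to 104735 and from 45013 to 83677 in MK2-/-, and from 80157 to 125186 and from 62656 to 79103 in MK2/3-/- BMDM. Siglech made up most of this sum and had a log2 difference of -0.60 in wt (adjusted p = 0.0825), while Zbtb46, a transcription factor of classical dendritic cells, rose by 3.69 in wt (adjusted p = 1.16e-07), 3.33 in MK2-/- (adjusted p = 7.87e-08) and 5.14 in MK2/3-/- cells (adjusted p = 1.03e-09). The fall in MK2-/- was that of Flt3, and the other rising genes in MK2/3-/- were Clec9a and Xcr1, of which Xcr1 was well above background on the 4 MK2/3-/- arrays with LPS only and passed the filter through that group. The part of such cells in the level of Ccr7 was not tested.

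Ccrl2, the atypical receptor that presents chemerin, rose with the smallest standard error of the 6. In medium it read (NM_017466) 7.87, 8.48, 8.44 and 9.31 in wt, 8.77, 9.21, 8.78 and 8.85 in MK2-/- and 9.65, 9.12 and 9.20 in MK2/3-/- BMDM. With LPS it read 13.22, 13.35 and 13.42 in wt, 13.90, 13.60, 13.42 and 13.49 in MK2-/- and 15.06, 14.43, 14.83 and 14.59 in MK2/3-/- BMDM. All MK2/3-/- arrays with LPS were above all others. The log2 difference was 4.81 ± 0.25 (SE) in wt (adjusted p = 2.83e-10), 4.70 ± 0.24 in MK2-/- (adjusted p = 3.48e-11) and 5.40 ± 0.25 in MK2/3-/- cells (adjusted p = 3.32e-11). Its closest followers were the protease inhibitor gene Serpina3f (r = 0.990), the inflammasome gene Nlrp3 (r = 0.986) and the cytokine subunit gene Il27 (r = 0.985).

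Ccr3, the eotaxin receptor best known from eosinophils, rose by far less. It read (NM_009914) 8.32, 8.99, 8.33 and 7.86 in wt, 7.70, 8.58, 8.48 and 8.45 in MK2-/- and 8.99, 9.42 and 7.71 in MK2/3-/- BMDM in medium. With LPS the values were 9.01, 10.45 and 9.93 in wt, 9.93, 9.90, 9.94 and 10.23 in MK2-/- and 9.42, 10.22, 9.79 and 9.49 in MK2/3-/- BMDM. The gap between treatments was narrow in wt and in MK2/3-/-, where the highest medium array and the lowest LPS array nearly met, at 8.99 and 9.01 and at 9.42 on both sides. The log2 difference was 1.42 ± 0.38 (SE) in wt (adjusted p = 0.00538), 1.70 ± 0.35 in MK2-/- (adjusted p = 0.000512) and 1.03 ± 0.38 in MK2/3-/- cells (adjusted p = 0.032). The rise in MK2/3-/- BMDM was 0.53 (adjusted p = 0.268) without replicate 3 of the medium group, 0.86 (adjusted p = 0.0908) without replicate 2 of the LPS group and 1.01 (adjusted p = 0.0566) without replicate 3 of it. Its call was lost as well with 75th percentile scaling (0.92, adjusted p = 0.0694) and with only the groups compared in the fit (adjusted p = 0.093). Rap2b (r = 0.925), Glrx (r = 0.911) and Bcl2l1 (r = 0.904) followed Ccr3 most closely. Eosinophil markers, 4 of 4 with a probe, summed to 204 to 685 over all groups, and Epx, the eosinophil peroxidase, was well above background on 3 of 22 arrays. The marker sums overlapped between treatments, at 247 to 550 in medium and 271 to 284 with LPS in wt, 237 to 420 and 242 to 333 in MK2-/-, and 292 to 685 and 204 to 349 in MK2/3-/- BMDM. Of the 4 markers, 1 rose in wt, none was called in MK2-/- and 1 fell in MK2/3-/- BMDM. Of all tested genes, 41.8, 44.4 and 47.8% were called in these genotypes. The part of such cells in the level of Ccr3 was not tested.

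**Figure D3:**
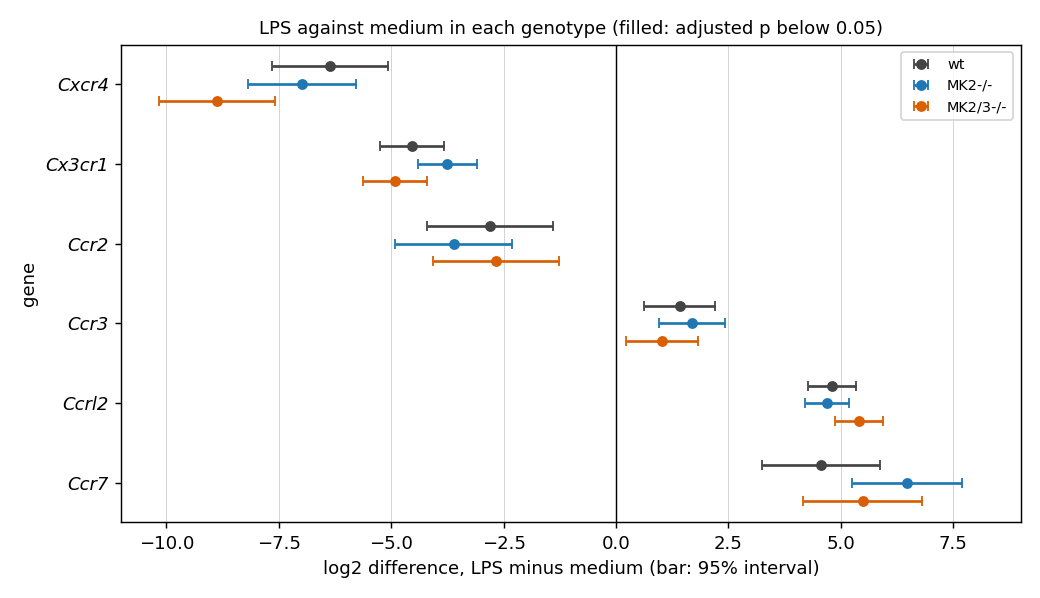
Log2 difference between LPS and medium (horizontal axis) of the 6 tested receptors (vertical axis) in wt, MK2-/- and MK2/3-/- BMDM, with the 95% interval from limma. Filled symbols had an adjusted p below 0.05, which all 18 did. Cxcr4, Cx3cr1 and Ccr2 lie left of 0, down to -8.88, and Ccr3, Ccrl2 and Ccr7 right of it, up to 6.48.

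Ccr1, a receptor for CCL3, CCL5 and other inflammatory chemokines, was well above background on 2 of 22 arrays and was not tested. It read (NM_009912) 4.87, 3.49, 2.04 and 1.99 in wt in medium and 7.25, 3.06 and 3.39 in wt with LPS. The 2 arrays that measured it were replicate 1 of wt in medium and replicate 1 of wt with LPS. In the other groups it lay between 1.99 and 4.19 and no array read it well above background. Cmklr1, the signalling receptor for chemerin (NM_008153), was not well above background on any of the 22 arrays, with values from 1.99 to 4.94. With no filter on dim probes, neither gene was called in any comparison, and the adjusted p of the LPS difference ranged from 0.228 to 0.979 for Ccr1 and from 0.387 to 0.742 for Cmklr1.

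The genotypes were then compared with each other under LPS, where 5 of 18 differences passed the test. Relative to wt, LPS-treated MK2-/- BMDM had more Cx3cr1, and LPS-treated MK2/3-/- BMDM had more Ccrl2 and less Cxcr4. Relative to MK2-/-, the MK2/3-/- BMDM had more Ccrl2 and less Cx3cr1. These were 1 of 6 receptors between MK2-/- and wt, 2 of 6 between MK2/3-/- and wt and 2 of 6 between MK2/3-/- and MK2-/-, where 11.6, 23.7 and 13.8% of all tested genes were called.

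Ccrl2 was the clearest of these. Its mean under LPS was 13.33 ± 0.10 (SD, n = 3) in wt, 13.60 ± 0.21 (n = 4) in MK2-/- and 14.73 ± 0.28 (n = 4) in MK2/3-/- BMDM. The arrays of wt and MK2-/- lay side by side, from 13.22 to 13.90, and those of MK2/3-/- from 14.43 up. MK2/3-/- exceeded wt by 1.40 ± 0.25 log2 units (SE, adjusted p = 0.000966) and MK2-/- by 1.12 ± 0.24 (adjusted p = 0.00379), while MK2-/- differed from wt by 0.27 with a 95% interval from -0.26 to 0.81 (adjusted p = 0.503). On the linear scale, the excess over wt was 2.63-fold.

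Cx3cr1 was highest under LPS in MK2-/- BMDM, at 12.63 ± 0.47 (SD, n = 4), against 11.53 ± 0.36 (n = 3) in wt and 11.56 ± 0.70 (n = 4) in MK2/3-/- BMDM. No MK2-/- array, the lowest of them at 12.32, overlapped with the highest array of wt, at 11.79, or of MK2/3-/-, at 12.23. The log2 difference from wt was 1.10 ± 0.34 (SE, adjusted p = 0.0435), and MK2/3-/- lay below MK2-/- by a log2 difference of -1.07 ± 0.31 (adjusted p = 0.0299). MK2/3-/- and wt differed by 0.03, with a 95% interval from -0.68 to 0.74 (adjusted p = 0.962). The call against wt sat at the edge of the threshold, and it was lost in 16 of 36 alternative settings, in which the difference stayed between 0.87 and 1.23. Omitting replicate 1 of wt with LPS gave 0.89 (adjusted p = 0.16), and omitting replicate 1 of MK2-/- with LPS gave 0.87 (adjusted p = 0.124). It was lost as well without replicate 2 (1.23) or 3 (1.18) of wt with LPS, without replicate 2 (1.13) or 4 (1.20) of MK2-/- with LPS, and, at an unchanged difference and an adjusted p from 0.0509 to 0.0528, without replicate 4 of wt, replicate 1 or 4 of MK2-/- or any replicate of MK2/3-/- in medium, arrays that enter through the shared variance only. The call of MK2/3-/- against MK2-/- was lost without replicate 1 of MK2-/- with LPS (-0.84, adjusted p = 0.114), replicate 2 of it (-1.10, adjusted p = 0.0575), replicate 1 of MK2/3-/- with LPS (-0.84, adjusted p = 0.0884) or replicate 2 of it (-0.90, adjusted p = 0.0798).

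Both other probes of Cx3cr1 were higher in MK2-/- than in wt under LPS as well. Probe A_55_P2054362 gave 1.04 ± 0.34 (SE), with a limma p of 0.0559 adjusted over all kept probes, and probe A_52_P99810 gave 1.86 ± 0.64 (adjusted p = 0.0627). The wider error of the latter came with a wt array with LPS at 5.93, beside 9.59 and 9.82 on the other two. For MK2/3-/- against MK2-/-, the differences were -1.03 (adjusted p = 0.0384) and -1.43 (adjusted p = 0.116).

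**Figure D4:**
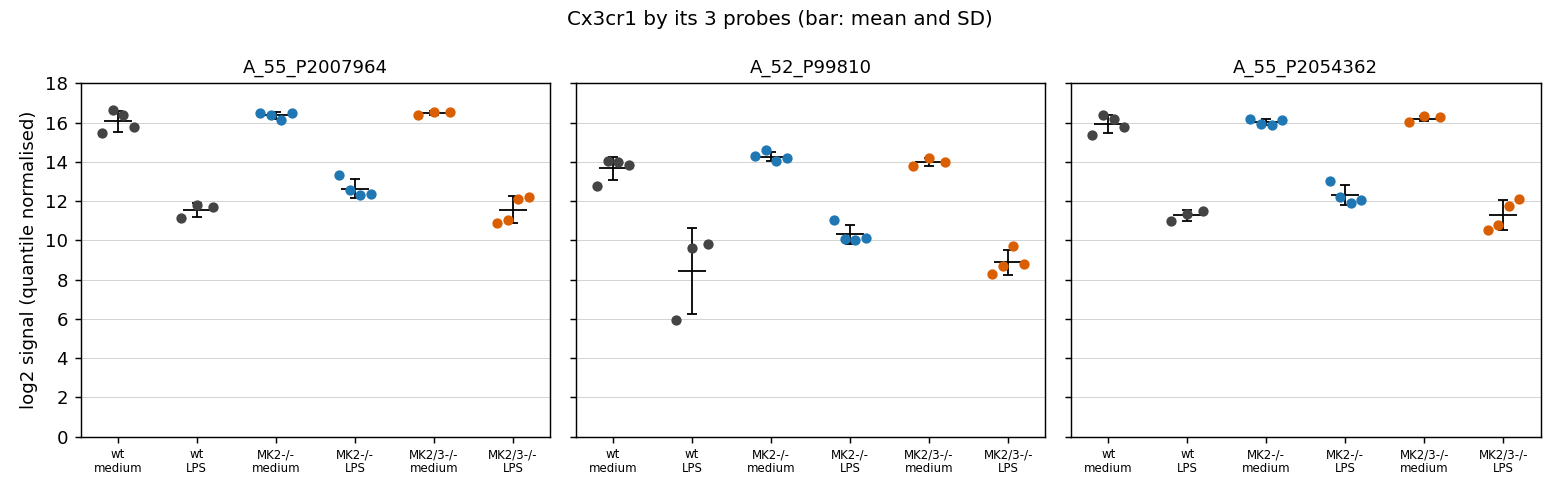
Log2 signal (vertical axis, quantile normalised) of the 3 Cx3cr1 probes on the 22 arrays, by genotype and treatment (horizontal axis), with mean and SD. The left panel is the main probe. On each probe the mean of the LPS arrays is highest in MK2-/- BMDM, at 12.63, 10.31 and 12.31, and 1 wt array with LPS lies at 5.93 on the middle probe.

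Cxcr4 under LPS was at 5.64 ± 1.10 (SD, n = 3) in wt, 5.01 ± 1.29 (n = 4) in MK2-/- and 3.37 ± 1.13 (n = 4) in MK2/3-/- BMDM. The arrays of wt and MK2-/- overlapped, those of MK2/3-/- overlapped with MK2-/-, and the highest MK2/3-/- array, at 4.39, lay below the lowest wt array, at 4.81. The log2 difference between MK2/3-/- and wt was -2.27 ± 0.62 (SE, adjusted p = 0.0126), and that between MK2/3-/- and MK2-/- was -1.65 ± 0.57 (adjusted p = 0.062). Only 1 of 4 MK2/3-/- arrays with LPS was well above background, so that the size of these differences is uncertain. The difference from wt was -0.63 (adjusted p = 0.0731) after normexp background correction, and without replicate 3 of wt with LPS it was -1.65 (adjusted p = 0.0853). The difference between MK2/3-/- and MK2-/- passed the test without replicate 3 of MK2-/- with LPS (-2.17, adjusted p = 0.0129), one of the arrays that stood apart.

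Ccr7 was at 12.64 ± 0.83 (SD, n = 3) in wt, 13.99 ± 0.77 (n = 4) in MK2-/- and 14.00 ± 0.75 (n = 4) in MK2/3-/- BMDM under LPS. It was 1.35 ± 0.63 (SE) log2 units above wt in MK2-/- and 1.36 ± 0.63 in MK2/3-/- BMDM, and neither difference passed the test over all genes (adjusted p = 0.158 and 0.124), and the highest wt array, at 13.59, lay within the range of both knockouts. Their 95% intervals ran from 0.03 to 2.67 and from 0.04 to 2.68. MK2-/- and MK2/3-/- differed by 0.01, with an interval from -1.21 to 1.23.

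Ccr2 was at 8.78 ± 0.29 (SD, n = 3) in wt, 8.58 ± 0.64 (n = 4) in MK2-/- and 9.82 ± 1.32 (n = 4) in MK2/3-/- BMDM under LPS. Of the 4 MK2/3-/- arrays, 3 exceeded every array of the other genotypes, and replicate 3, at 7.90, was the lowest of all. MK2/3-/- lay 1.05 ± 0.67 (SE) above wt (adjusted p = 0.268) and 1.24 ± 0.62 above MK2-/- (adjusted p = 0.195). Without that replicate the differences were 1.69 (adjusted p = 0.0481) and 1.89 (adjusted p = 0.0368). The monocyte marker sum in this genotype with LPS was 28185 on replicate 1, 13715 on replicate 2, 14576 on replicate 3 and 18352 on replicate 4, and its part in these differences was not tested. The remaining 8 differences under LPS, among them all 3 of Ccr3, lay between -0.63 and 0.27 and were not called.

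**Figure D5:**
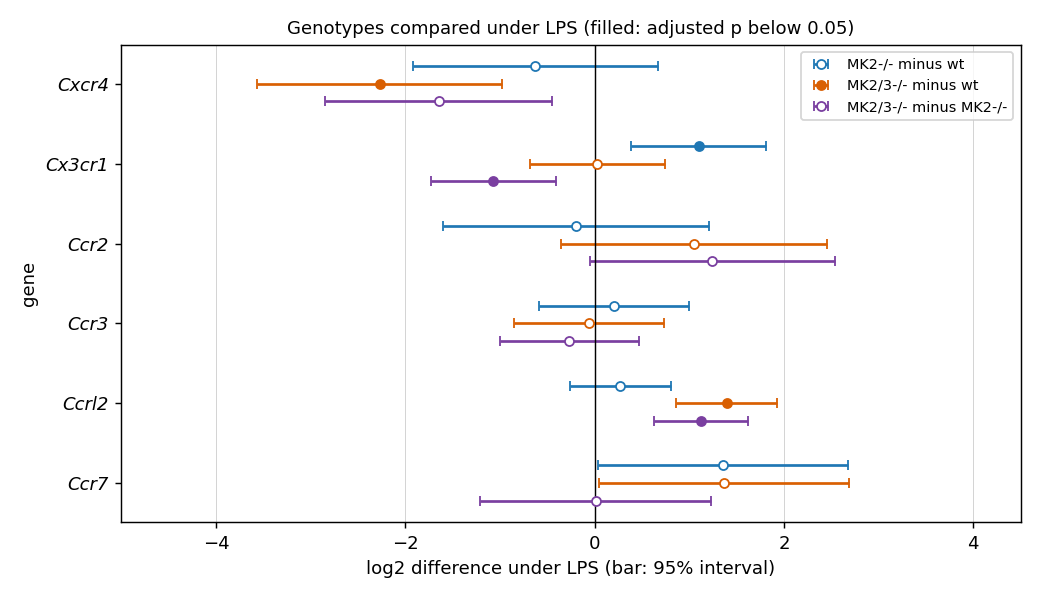
Log2 differences between genotypes under LPS (horizontal axis) for the 6 tested receptors (vertical axis), with 95% intervals from limma. Filled symbols had an adjusted p below 0.05. These are Cxcr4 for MK2/3-/- minus wt at -2.27, Cx3cr1 for MK2-/- minus wt at 1.10 and for MK2/3-/- minus MK2-/- at -1.07, and Ccrl2 for MK2/3-/- minus wt at 1.40 and minus MK2-/- at 1.12.

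In medium, none of the 6 receptors passed the limma test in any of the 3 comparisons of genotypes, where 8.57% of all tested genes were called for MK2-/- against wt, 1.95% for MK2/3-/- against wt and 2.82% for MK2/3-/- against MK2-/-. At an unadjusted p below 0.05 there were 0, 1 and 0 receptors, beside 26, 17.1 and 15% of all tested genes, and the methods' t-test called 0 in each at the same unadjusted threshold. The 1 receptor was Ccrl2, at 9.32 ± 0.29 (SD, n = 3) in MK2/3-/- and 8.53 ± 0.59 (n = 4) in wt, a difference of 0.80 ± 0.25 (SE, adjusted p = 0.11). Without replicate 4 of wt in medium, the array set apart for raised LPS-inducible genes and with the highest wt value of 9.31, the difference was 1.06 (adjusted p = 0.034). Because Ccrl2 itself rises with LPS, leaving out an array chosen in this way lowers the wt mean by the choice, and no conclusion is drawn from this call. For Ccr2 the mean of MK2/3-/- lay 0.92 ± 0.67 above that of wt (adjusted p = 0.516), and for Ccr7 it lay 1.00 ± 0.63 above that of MK2-/- (adjusted p = 0.504). Without replicate 1 of MK2/3-/- in medium the former was 0.50, and without replicate 2 the latter was 0.49. The other 15 differences in medium lay between -0.56 and 0.61. For Cxcr4 the 95% interval of MK2-/- against wt ran from -1.20 to 1.19, so that a difference of about 2-fold in either direction could not be told from none.

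Whether LPS moved the receptors differently in the 3 genotypes was tested directly with the difference of the LPS responses, in which an additive slide effect cancels. None of the 6 receptors passed, where 0% of all tested genes were called for MK2-/- against wt, 0.652% for MK2/3-/- against wt and 0.0536% for MK2/3-/- against MK2-/-. For MK2-/- against wt, the 0 called genes compare with 1633 at an unadjusted p below 0.05. Among the receptors, 1, 1 and 2 had an unadjusted p below 0.05, beside 7.3, 11.3 and 8.61% of all tested genes. For Cxcr4 the response in MK2/3-/- minus that in wt was -2.52 ± 0.87 (SE, adjusted p = 0.214), and minus that in MK2-/- it was -1.90 ± 0.84 (adjusted p = 0.536). Both rest on the MK2/3-/- arrays with LPS, of which only 1 of 4 was well above background, and with normexp they were -0.86 and -0.68. The rise of Ccr7 in MK2-/- exceeded that in wt by 1.92 ± 0.86, with a 95% interval from 0.12 to 3.72 (adjusted p = 0.678). The response of Cx3cr1 in MK2/3-/- minus that in MK2-/- was -1.17 ± 0.46 (adjusted p = 0.481), and that in MK2-/- minus that in wt was 0.79 ± 0.46 (adjusted p = 0.743). For Ccrl2 the response in MK2/3-/- exceeded that in wt by 0.60, with an interval from -0.16 to 1.35 (adjusted p = 0.593).

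The 6 receptors were set beside other genes of the chemokine system. Over all tested genes, LPS gave 18.6% higher and 23.2% lower calls in wt. In MK2-/- these shares were 17.7 and 26.7%, and in MK2/3-/- BMDM 20.3 and 27.5%. Of 12 other chemokine receptors, all tested, 3 rose and none fell with LPS in wt, with a median log2 difference of 0.31, against a median of -0.04 over all tested genes. These were Ccr9 (2.93 ± 0.24, SE), the gut-homing receptor for CCL25, Ccr8 (1.37 ± 0.23) and Cxcr6 (1.07 ± 0.39), the receptor for CXCL16. In the knockouts, 5 rose in MK2-/- and 6 in MK2/3-/- BMDM, and none fell. Among the 6 was Xcr1, which was well above background on MK2/3-/- arrays with LPS only and passed the filter through that group. Of 7 gene symbols looked up for atypical and chemerin receptors, 4 were tested, and none was called in wt or MK2-/-. Ackr1, the receptor that scavenges chemokines on erythrocytes and venules, was called higher in MK2/3-/- BMDM (0.80 ± 0.26). Its means in medium and with LPS were 6.70 and 7.31 in wt, 7.51 and 8.07 in MK2-/-, and 7.59 and 8.38 in MK2/3-/-. The LPS response was not called different between genotypes for any of these 4 genes. With 75th percentile scaling, the other chemokine receptors gave 5, 6 and 7 rising genes in wt, MK2-/- and MK2/3-/- BMDM, again with none falling, and the atypical group gave 1 rising gene in each genotype, whereas normexp gave 1 falling gene of that group in wt.

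Among 18 ligands of the 8 receptors, 16 were tested. In wt 10 rose and none fell, and 11 rose in MK2-/- and 9 in MK2/3-/- BMDM, with medians of 2.35, 2.22 and 1.65. Of all tested genes, 18.6, 17.7 and 20.3% rose in these genotypes. The steepest in wt were Ccl7 (8.05 ± 0.70, SE), Ccl2 (7.63 ± 0.46) and Ccl12 (7.48 ± 0.58), all ligands of CCR2, whose own transcript fell. A pair of further ligands is named with values already seen. Ccl19, a ligand of CCR7, rose by 0.62 ± 0.16 in wt. Cxcl12, the ligand of CXCR4, had a log2 difference of -0.01 ± 1.31 in wt, with an error too wide to tell a change from none.

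Receptor kinases, arrestins and regulators of G protein signalling (RGS), which end receptor signalling, gave 11 calls among 14 tested genes in wt, of which 3 rose and 8 fell, with a median of -1.30. Of all tested genes, 41.8% were called in wt, 18.6% higher and 23.2% lower. Rgs2 (-4.71 ± 0.29, SE) and Arrb1, which encodes beta-arrestin 1 (-4.25 ± 0.19), fell and Rgs16 rose (2.42 ± 0.72). In MK2-/- and MK2/3-/- BMDM, 9 and 8 of the 14 fell and 3 and 4 rose. Of all tested genes, 26.7 and 27.5% fell and 17.7 and 20.3% rose there. The same shares stand beside the next list. Among 24 tested genes of G proteins and migration signalling, 10 rose and 4 fell in wt, 8 rose and 7 fell in MK2-/- and 9 rose and 4 fell in MK2/3-/- BMDM. Their median in wt was -0.02 but 0.55 with 75th percentile scaling, under which 12 rose and 1 fell. Pik3r5, the regulatory subunit of the G protein-activated PI3 kinase gamma (2.32 ± 0.25), the small GTPase gene Rap1b (1.58 ± 0.19) and the G protein subunit gene Gng2 (-1.24 ± 0.19) moved most in wt.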

How the data were processed

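RNA of the 22 BMDM samples was labelled with Cy3 and hybridised to 1-colour Agilent 8x60K mouse arrays. Intensities were used as deposited, background-corrected within each array by Agilent Feature Extraction 11.0.1.1 per the file headers but not normalised between arrays. The table of log2 values deposited by the authors served as an alternative. Control spots were dropped, spots marked as outliers were set aside, spots of a probe were averaged, and log2 values were quantile normalised. Of 55681 probes, 29150 carried a RefSeq accession, of which 27509 matched a symbol in the RefSeq gene table (GRCm38.p6). A probe was kept where it was well above background on at least 3 arrays, and the kept probe with the highest mean stood for its gene. One model of 6 group means was fitted over 22384 genes and 22 arrays with limma 3.58.1 in R 4.3.3, with Benjamini-Hochberg adjustment at 0.05. The procedure was tested on simulated data. Normexp (offset 50) was run on the median spot signal, since the mean signal is not in the files used here.

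The receptors and gene lists were chosen with earlier results of these data known. All 8 receptors are named, as are the 3 called genes with the steepest LPS change in wt of each list and the 3 genes most correlated with each receptor. Protein sequences were not used here. A few genes of the lists are not reported here and were left out of every list count and marker sum.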

Additional observations from a re-analysis of the deposited data

Results flagged for a closer look

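Of the 24 groups of 4 arrays examined for the 6 tested receptors, 4 had an array far from the others, where chance alone gives about 1 in 20 groups, and all 4 were MK2-/- groups. MK2-/- was the only genotype with 4 arrays in both treatments, so it supplied more of the 24 groups than either other genotype. The receptors were read on the same arrays, so these groups are not independent. In medium, Cxcr4 was at 12.31 on replicate 4 against 11.85 to 11.91 on the others, Ccr3 was at 7.70 on replicate 1 against 8.45 to 8.58, and Ccrl2 was at 9.21 on replicate 2 against 8.77 to 8.85. With LPS, Ccr3 was at 10.23 on replicate 4 against 9.90 to 9.94. These gaps were below 1 log2 unit and fell on 3 different replicates.

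Ccr1, which entered no comparison, was at 7.25 on replicate 1 of wt with LPS, above the 1.99 to 4.87 of the wt arrays in medium, and was not well above background on the other two wt arrays with LPS. Replicate 1 of wt in medium and with LPS also had the highest summed signals of mast cell and basophil markers, 328 and 339, beside at most 163 elsewhere. Their stromal marker sums, 99628 and 63163, were the highest as well. The part of such cells in the level of Ccr1 was not tested.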

How the results depend on the processing

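All 18 LPS responses kept their direction in all 36 alternatives, and the 22 other larger or called differences kept theirs in every alternative run. Of the 32 smaller differences, none of them called, 17 changed sign in at least 1 alternative. The number of receptors called under LPS for MK2-/- against wt, 1 as reported, was 0 with 75th percentile scaling, with only the groups compared in the fit, with the methods' t-test adjusted by Benjamini-Hochberg and without the 3 arrays that stand apart, 2 with array weights, and 0 to 1 when single arrays were left out. For MK2/3-/- against wt, 2 became 1 with normexp or with only the groups compared, 0 with the adjusted methods' t-test, and 1 to 3 when single arrays were left out (1 without replicate 3 of wt with LPS, 3 without replicate 3 of MK2/3-/- with LPS). For MK2/3-/- against MK2-/-, 2 became 1 with only the groups compared or with the adjusted methods' t-test, 3 without the 3 arrays that stand apart, and 1 to 3 when single arrays were left out. In medium, MK2/3-/- against wt gave 1 in place of 0 with 75th percentile scaling and without the 3 arrays that stand apart, and 0 to 1 when single arrays were left out. The difference of the responses of MK2/3-/- and wt gave 1 in place of 0 with array weights (Cxcr4). The causes were not tested. The methods' t-test on these values called 6, 6 and 5 receptors for LPS in wt, MK2-/- and MK2/3-/- BMDM at an unadjusted p below 0.05, and 5, 6 and 4 after adjustment. The higher Ccrl2 of MK2/3-/- over MK2-/- under LPS passed the threshold in all 36 alternatives, at 1.01 to 1.22.

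Of the LPS and medium arrays of a genotype, 7 of 10 same-numbered pairs and 5 of 30 others had a correlation of deviations from the group means over 0.1, among them all 3 same-numbered pairs of MK2/3-/-. The numbers do not always join samples of the same age or of the same letter in the array names, and with the letter 7 of 10 pairs passed as well. With the number as a replicate block, 6 receptors were called for LPS in each genotype and 1, 2 and 2 between genotypes under LPS, the same counts as without it and as with the letter as the block. The precision is limited by 3 or 4 arrays a group and, for Cxcr4 with LPS, by signals near background.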

Other observations

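Among the 16 tested ligands of these receptors, 1 was higher and 1 lower under LPS by limma in MK2/3-/- than in wt (23.7% of all genes called) and 2 were lower in MK2/3-/- than in MK2-/- (13.8%). The higher one was Ccl19 (0.54, adjusted p = 0.0207), and the lower ones were Cx3cl1 and, against MK2-/-, Ccl24 (-1.27, adjusted p = 0.0481). Cx3cl1, which encodes the ligand of CX3CR1 and was picked with its values seen, was at 13.04 ± 0.98 (SD, n = 3) in wt, 13.05 ± 1.03 (n = 4) in MK2-/- and 10.96 ± 1.04 (n = 4) in MK2/3-/- BMDM with LPS. The log2 difference of MK2/3-/- was -2.08 from wt (adjusted p = 0.0253, limma) and -2.09 from MK2-/- (adjusted p = 0.0259). Its LPS difference was 3.33 in wt (adjusted p = 0.000359), 4.07 in MK2-/- (adjusted p = 1.3e-05) and 1.57 in MK2/3-/- cells (adjusted p = 0.051), and the test of the difference between these responses did not pass (adjusted p = 0.502 against wt and 0.415 against MK2-/-).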
